A study of Arabidopsis thaliana and Nicotiana benthamiana and Solanum lycopersicum with 20 samples.

Results

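The binding of rice GLK1 and rice GLK2 in leaves was compared through 4 ChIP-seq peak lists, 2 replicates of each transcription factor (TF). They belong to 20 lists of GLK1 and GLK2 from 5 species, of which the maize lists came from leaf protoplasts. ChIP-seq recovers, through an antibody to the tag, the cross-linked DNA that a tagged TF holds; positions where more of it is found than in a control are listed as peaks, each with a summit. The members are the 45636 peak summits of the 4 rice lists, of 480034 in the whole series. The GLK1 plants carried the HA-tagged cDNA of Os06g24070 and the GLK2 plants that of Os01g13740, both driven by the ubiquitin promoter, which is active in most cells. Both transgenes were put into the wild-type cultivar Nipponbare, which keeps its own GLK genes, and the methods describe stable plants from a line chosen for high protein level, whereas the series description speaks of transient expression. Fully expanded leaves and an anti-HA antibody were used for both TFs. If each TF came from 1 line, the TF and the site of its transgene cannot be told apart. Position, strength and recurrence of summits were compared, and the number of reads behind each single list is not held in the lists.

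GLKs (GOLDEN2-LIKE) are GARP-family activators that turn on nuclear genes for chloroplast development, among them genes of chlorophyll synthesis and of the light-harvesting antenna. Plants commonly have a pair of GLK genes with overlapping functions, and in maize the pair is divided between the bundle sheath and the mesophyll. Peak lists of each member of the rice pair show which sites were called for both and which for 1 member alone. A site absent from a list was not called there, which does not show that the TF was not bound.

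The GLK1 lists were several times longer than the GLK2 lists. GLK1 replicates 1 and 2 held 23003 and 14656 summits, against 6168 and 1809 in GLK2 replicates 1 and 2. A summit was called reproducible when its 150 bp window overlapped that of a summit in the other replicate of the same TF. By this rule 10108 (43.9%) and 9691 (66.1%) summits of the GLK1 lists were reproducible, against 1311 (21.3%) and 1264 (69.9%) of the GLK2 lists. In each pair the shorter list was mostly contained in the longer one. Summits just inside and just outside the limit were close in strength. In GLK1 replicate 1, the 674 summits whose nearest partner lay 130 bp or more away but still overlapped had a median fold change over the control of 4.26, and the 575 at 150 to 169 bp, without overlap, had 4.07. In GLK2 replicate 1, the 79 summits inside had a median of 6.82 and the 59 outside 6.76.

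Reproducible summits with overlapping windows were joined into places, which gave 9024 GLK1 places and 1245 GLK2 places. The number rests on which replicate is used. Without GLK1 replicate 1 or 2, the other GLK1 list alone gave 14320 or 22234 places, and without GLK2 replicate 2, GLK2 replicate 1 alone gave 6089. The strongest summits had similar fold changes in spite of the lengths of the lists. The highest fold changes were 746 and 725 in the GLK1 lists, against 844 and 595 in the GLK2 lists. The summit ranked 100 by fold change had 24.6 and 21.2 in the GLK1 lists, against 27.6 and 16.2 in the GLK2 lists. The GLK1 and GLK2 ranges overlap at both points, with GLK2 replicate 1 the highest and GLK2 replicate 2 the lowest. At rank 1000 the fold changes were 8.71 and 7.79 in the GLK1 lists, against 8.05 and 5.09 in the GLK2 lists. The GLK1 lists reached further down: their lowest fold changes were 2.17 and 2.42, against 2.69 and 3.33 in the GLK2 lists.

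The strongest GLK1 places recurred in GLK2, and the weaker ones mostly did not. Of all 9024 GLK1 places, 990 (11.0%) held a GLK2 place. Single lists held more: 2869 GLK1 places (31.8%) overlapped a summit of GLK2 replicate 1 and 1116 (12.4%) a summit of GLK2 replicate 2. At least 1 GLK2 list held 2987 of them (33.1%), both held 998, and neither held the other 6037 (66.9%). These shares move with list length: with every list cut to the length of the shortest, 40.3% of the then 1050 GLK1 places had a GLK2 place. The first of them also moved with the replicate left out: the share of GLK1 places with a GLK2 place was 31.8% without GLK2 replicate 2, and 5.31% or 7.67% without GLK1 replicate 2 or 1.

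Places were then ordered by the mean of their percentile ranks of fold change in both lists of their TF. All 50 strongest GLK1 places had a GLK2 place, as did 95 of the strongest 100 and 183 of the strongest 250 (73.2%). The number was 298 of the strongest 500 (59.6%, 95% Wilson interval 55.2 to 63.8%, which covers counting error only), 439 of the strongest 1000 (43.9%) and 601 of the strongest 2000 (30.0%). The share was thus lower with each larger set after the first 50. Of the strongest 100, 99 had a summit of at least 1 GLK2 list and 97 had summits of both, though only 95 had a GLK2 place. The places near 22549913 of chromosome 4 and near 3342022 of chromosome 3 had both. There the windows of the GLK2 summits overlapped the GLK1 place but not each other. With the order cut into 10 equal groups, 46.5% of the first group had a GLK2 place, 17.4% of the second and 0.887% of the last. In GLK2 replicate 1 alone the decline was shallower: 356 of the strongest 500 GLK1 places had a summit there (71.2%), against 302 (60.4%) in GLK2 replicate 2. Even in the last group, 163 of 902 places (18.1%) had a summit of GLK2 replicate 1, and 16 (1.77%) had one of GLK2 replicate 2. The GLK2 lists differed from each other by a larger factor over the weak GLK1 places than over the strong ones.

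**Figure D1:**
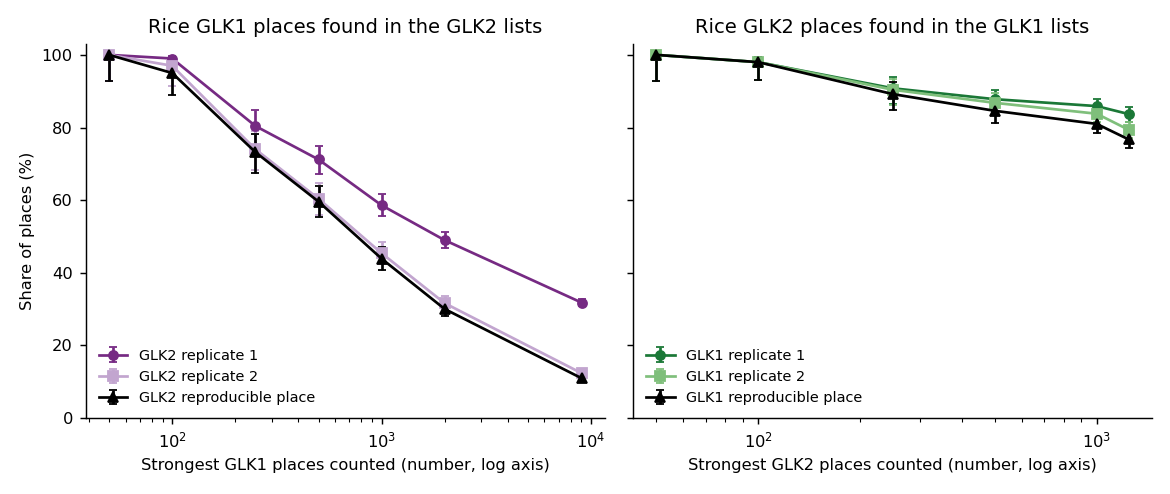
Share of the strongest places of each TF (x axis, number of places counted from the strongest down, log axis) that were found in each list of the other TF or among its reproducible places (y axis, percent), with 95% Wilson intervals as bars. The GLK1 places (left) fall to 11.0% with a GLK2 place when all 9024 are counted. The GLK2 places (right) fall less far, to 76.7% with a GLK1 place when all 1245 are counted.

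In the opposite direction, most GLK2 places were found in GLK1. Of the 1245 GLK2 places, 955 (76.7%) held a GLK1 place, and 1075 (86.3%) had a summit of at least 1 GLK1 list. All 50 of the strongest GLK2 places had a GLK1 place, as did 98 of the strongest 100 and 423 of the strongest 500 (84.6%). The share was 96.0% in the first of 10 equal groups and 53.2% in the last, so here too it was lower at the weak end. Without GLK2 replicate 2, 47.5% of the then 6089 GLK2 places had a GLK1 place.

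The GLK1 lists being longer, the same lists were compared at equal numbers of summits. Among the 50 strongest summits of each list, 48 were shared by both GLK1 lists and 44 by both GLK2 lists, and between the TFs 41 to 45 were shared. For the 100 strongest the corresponding numbers were 89 for GLK1, 80 for GLK2 and 73 to 84 between the TFs. In both sets the numbers between the TFs lay on either side of the GLK2 replicate number and below the GLK1 one. When every list was cut to its 1809 strongest summits, the length of the shortest, 61.0% to 61.9% of the summits were shared by the GLK1 lists, 48.6% to 50.1% by the GLK2 lists and 30.1% to 39.2% by lists of different TFs. All pairs of different TFs were then below both replicate pairs.

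The strongest place of all 4 lists was the same one, on chromosome 3. It had fold changes of 746 and 725 in GLK1 replicates 1 and 2, against 844 and 595 in GLK2 replicates 1 and 2. Its summits lay at positions 28686726 and 28686735 in the GLK1 lists, against 28686741 and 28686740 in the GLK2 lists (MSU7.0), a spread of 15 bp. No gene name is given for it here. Of the 10 strongest places of each TF, 8 were shared, and 43 of the 50 strongest. The other 2 of the GLK1 set were on chromosomes 8 and 10, and those of the GLK2 set both lay on chromosome 2. The GLK1 place near position 5592845 of chromosome 10 had fold changes of 223 and 192 in GLK1, against 200 and 104 in GLK2, with ranks of 7 and 9 against 11 and 14. The GLK2 place near position 30476037 of chromosome 2 had 167 and 129 in GLK1, against 209 and 176 in GLK2, with ranks of 12 and 13 against 10 and 5. The ranks of these places do not overlap between the TFs, but they differ by few steps.

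The remaining shared places among the first 10 stood on chromosomes 3, 7, 6, 6, 10, 2 and 4. On chromosome 7 the place near 22487337 ranked 2 and 3 in GLK1, against 4 and 6 in GLK2. On chromosome 6 the place near 12452621 ranked 4 and 5, against 6 and 9. On chromosome 2 the place near 35091737 ranked 8 and 8, against 7 and 4. The chromosome 7 place and the chromosome 6 place near 12452621 stood higher in the GLK1 lists, and the chromosome 2 place at least as high in the GLK2 lists. The other chromosome 6 place, near 8704593, stood higher in the GLK2 lists, with ranks of 6 and 6 in GLK1, against 3 and 3 in GLK2. On chromosome 10 the place near 18900220 had ranks of 9 and 7 in GLK1, against 9 and 8 in GLK2. On chromosome 4 the place near 22837247 ranked 10 in both GLK1 lists, against 5 and 12 in the GLK2 lists. For these last places the ranks overlap between the TFs.

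Genes of chlorophyll synthesis were represented among the strong shared places. The study's supplementary source table names genes beside the fold change of a site, and 7 of its 10 different rice values equal the mean of the fold changes of both GLK1 lists at a single place. The table gives GLK targets that the study called from its own libraries, so the presence of these places in the GLK1 or GLK2 lists is no independent finding. All 7 places had a summit in both GLK2 lists. Of the 250 strongest GLK1 places, among which their ranks lie, 185 (74.0%) were in both. CHLH, the large subunit of the magnesium chelatase, which puts magnesium into protoporphyrin, had fold changes of 340 and 378 in GLK1, against 443 and 278 in GLK2. The place, near position 11712062 of chromosome 3, ranked 3 and 2 in GLK1, against 2 and 2 in GLK2. The GLK1 values lie between both GLK2 values.

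CHLI, the ATPase subunit of the same enzyme, had lower values. Its place on chromosome 3, near 20250072, had 19.3 and 18.2 in GLK1, against 23.1 and 11.0 in GLK2. GUN4, which stimulates the magnesium chelatase, had 44.1 and 46.0 in GLK1, against 68.7 and 27.0 in GLK2, near position 9177276 of chromosome 11. As for CHLH, GLK2 replicate 1 was above and GLK2 replicate 2 below both GLK1 lists. CHLM, the methyltransferase of the next step, had 19.3 and 15.6 in GLK1, against 18.7 and 10.3 in GLK2, near 1735127 of chromosome 6. HEMA, glutamyl-tRNA reductase at the start of the pathway, had 14.7 and 15.0 in GLK1, against 18.1 and 17.9 in GLK2, near 19163313 of chromosome 10. It was the only one of the 7 at which both GLK2 lists were above both GLK1 lists.

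CAO, the oxygenase that makes chlorophyll b, had 26.0 and 23.9 in GLK1, against 36.7 and 19.3 in GLK2, near 22486995 of chromosome 10. A place near 34662900 of chromosome 4 carries a value that the table gives both for HEMF, the coproporphyrinogen oxidase, and for POR, the protochlorophyllide oxidoreductase, and which gene it belongs to was not settled here. It had 98.5 and 96.3 in GLK1, against 98.0 and 56.0 in GLK2. None of the 7 places passed the limma test for a difference described below (adjusted p from 0.485 at the chromosome 4 place to 0.862 at GUN4), which does not show that the TFs were alike there. The strength of the pathway's sites thus spanned over an order of magnitude, with CHLH at the top and HEMA, CHLM and CHLI at the bottom in GLK1.

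**Figure D2:**
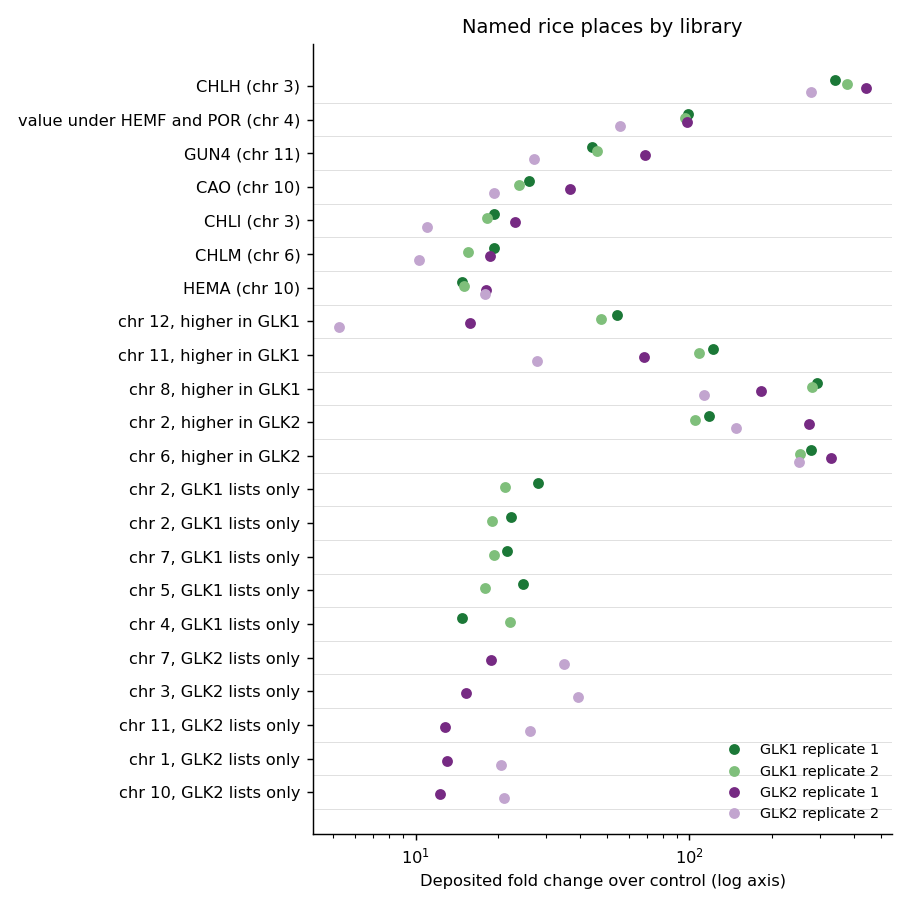
Deposited fold change over the control (x axis, log axis) at named rice places (y axis), with 1 point for each of the 4 libraries. The 7 chlorophyll pathway places (top) have points in all 4 colours, the 5 called places follow, and the last 10 places have points of only 1 TF.

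At the 1037 places with a summit in all 4 lists, of 9275 places of either TF, the fold changes went together between the TFs. Spearman's rho between a GLK1 and a GLK2 list was 0.580 to 0.710 across the 1037 places, with 0.841 between the GLK1 lists and 0.630 between the GLK2 lists. These are descriptions: the places share their libraries, and they were required to be in every list. The lowest and the highest of the values between TFs stand on both sides of the GLK2 replicate value. Among the 100 strongest by GLK1, rho was 0.799 to 0.873 between the TFs, 0.972 between the GLK1 lists and 0.949 between the GLK2 lists.

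The distance between summits was limited in advance at the 1037 places, because every list had to have a 150 bp window overlapping the place. No background distance was taken, so the medians over all these places do not show that the summits were close. The median distance between summits was 45 to 56 bp between the TFs, 37 bp between the GLK1 lists and 47 bp between the GLK2 lists. For the 100 strongest places it was 15.5 to 20 bp between the TFs, 8.5 bp for GLK1 and 14 bp for GLK2. The distances were shorter at strong places in every pair.

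**Figure D3:**
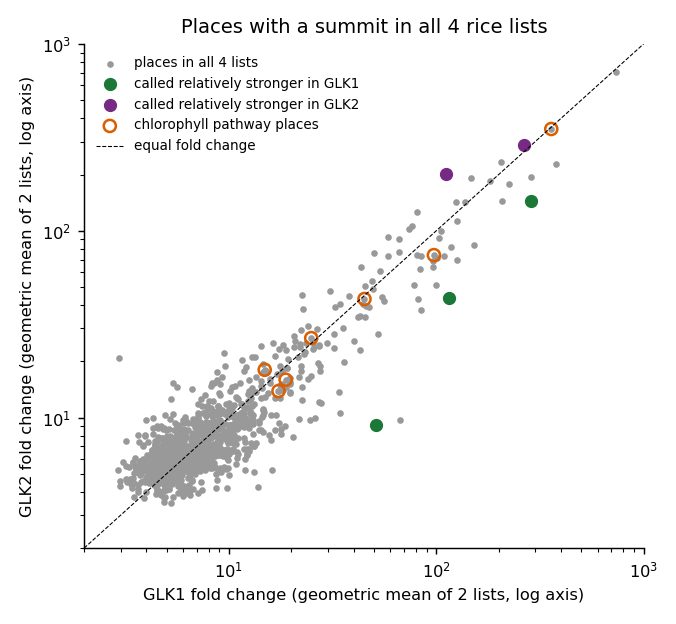
Fold change of GLK2 (y axis) against GLK1 (x axis), each the geometric mean of both lists on a log axis, at the 1037 places found in all 4 rice lists. The 5 called places are filled in colour and the 7 chlorophyll pathway places are circled; the dashed line marks equal fold change.

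Differences in strength between the TFs were tested at these 1037 places with limma on quantile-normalised log2 fold changes, which sets the lists on 1 scale by their ranks. With Benjamini-Hochberg adjustment over all 1037, 3 places (0.289%) passed an adjusted p of 0.05 as relatively stronger in GLK1 and 2 (0.193%) as relatively stronger in GLK2. An unadjusted p under 0.05 was found at 159 of the 1037. The number of calls depends on the setting: it was 39 of 1037 with median centring, 2 of 1037 without normalisation and 20 of 1037 by −log10 q. It was 28 of 691 with summits within 75 bp and 36 of 519 among places above the median strength. Ranked within the 1037 places, the lists of both TFs did not overlap at 492 of them (47.4%). With 2 lists against 2, a random order keeps the TFs apart with a probability of 0.333. In simulated data the smaller of the changes tried was not recovered. There the replicate spread was pooled over both TFs and drawn at random across places, which the data do not share. The simulation thus does not give the sensitivity of this fit, and a place that did not pass may still differ.

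The largest called difference was on chromosome 12. The place near position 4137821 had fold changes of 54.5 and 47.7 in GLK1, against 15.8 and 5.26 in GLK2. Both GLK1 lists were above both GLK2 lists, and the ranks were 47 and 46, against 228 and 933. The difference, GLK1 minus GLK2, was 2.47 ± 0.31 (log2, SE; limma adjusted p = 0.0214). On chromosome 11, near 826435, the fold changes were 122 and 109 in GLK1, against 68.2 and 27.8 in GLK2, a difference of 1.29 ± 0.15 (limma adjusted p = 0.0177). On chromosome 8, near 1086849, they were 292 and 281 in GLK1, against 183 and 113 in GLK2, a difference of 0.88 ± 0.09 (limma adjusted p = 0.0100). At these places also the deposited values do not overlap between the TFs.

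On the GLK2 side, a place of chromosome 2 near 28684030 had 118 and 105 in GLK1, against 274 and 148 in GLK2. Its ranks were 18 and 20, against 8 and 7, and the difference was -0.96 ± 0.09 (limma adjusted p = 0.0100). A place of chromosome 6 near 8704593 had 278 and 254 in GLK1, against 328 and 251 in GLK2, and its deposited values overlap. Its call of -0.40 ± 0.06 (limma adjusted p = 0.0383) rests on ranks of 6 and 6, against 3 and 3. Quantile normalisation gives equal ranks equal values, so within each TF the replicates became equal. The SE therefore measures no spread between replicates at this place. With each list centred on its median, this place had -0.09 and an adjusted p of 0.823. None of the 5 kept an adjusted p under 0.05 without normalisation, or when either GLK1 replicate was left out. The differences themselves changed little except on chromosome 6: without normalisation they were 2.48 on chromosome 12, 1.41 on chromosome 11, 0.99 on chromosome 8, -0.86 on chromosome 2 and -0.11 on chromosome 6. Without 1 library at a time, the difference ran from 2.01 to 2.88 on chromosome 12 and from 1.14 to 1.41 on chromosome 11. It ran from 0.77 to 1.02 on chromosome 8, -1.05 to -0.89 on chromosome 2 and -0.46 to -0.34 on chromosome 6.

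The single largest difference did not pass. A place of chromosome 10 near 3900199, named after its values were seen, had 73.6 and 60.3 in GLK1, against 21.7 and 4.33 in GLK2. The difference was 2.78 ± 0.51 (limma adjusted p = 0.0598), and GLK2 replicate 2 stood apart from GLK2 replicate 1. At the other end, also named after its values were seen, a place near 17373777 of the same chromosome had 2.74 and 3.19 in GLK1, against 16.6 and 25.9 in GLK2. The difference was -2.68 ± 0.48 (limma adjusted p = 0.0598). It ranked 21487 and 12401 in the GLK1 lists, near their ends, against 209 and 63 in the GLK2 lists.

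The strongest GLK1 places in neither GLK2 list were of moderate strength. The first, on chromosome 2 near 35123121, had fold changes of 27.9 and 21.2 and ranks of 79 and 100 in GLK1, and its nearest GLK2 summit was 28886 bp away. The others were on chromosome 2 (near 2598166, 22.3 and 19.0), chromosome 7 (near 9406040, 21.6 and 19.3), chromosome 5 (near 25608439, 24.8 and 17.9) and chromosome 4 (near 31895467, 14.7 and 22.1). The chromosome 7 place had a GLK2 summit 202 bp away, and for the other 4 the nearest was 20445 bp or more away. Over all 6037 GLK1 places in neither GLK2 list, the median fold changes were 4.55 and 4.40, against 7.60 and 6.92 for the 998 in both GLK2 lists.

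The GLK2 places in neither GLK1 list numbered 170 of 1245 (13.7%). They stood apart in how the GLK2 replicates related to each other. The strongest, on chromosome 7 near 14657614, had fold changes of 18.9 and 34.9 in GLK2 replicates 1 and 2. The next, on chromosome 3 at 19815313, had 15.2 and 39.0, and its nearest GLK1 summit was 61252 bp away. On chromosomes 11 (near 28118796), 1 (near 28144665) and 10 (near 9888660) the values were 12.8 and 26.2, 13.0 and 20.5, and 12.2 and 21.0. At all 5, replicate 2 had the higher fold change, and ranks of 41 to 71 in replicate 2 against 168 to 371 in replicate 1.

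This held for most of the 170. Replicate 2 had the higher fold change at 121 of them (71.2%), against 13.9% of the 1075 GLK2 places with a GLK1 summit. The median ratio of replicate 2 to replicate 1 was 1.26 at the places without a GLK1 summit and 0.645 at those with one. Among the 250 strongest GLK2 places, replicate 2 was higher at 21 of 22 without and at 8 of 228 with a GLK1 summit. The corresponding split of GLK1 places was small: GLK1 replicate 2 was higher at 2689 of 6037 places in neither GLK2 list (44.5%), against 1121 of 2987 in 1 or both (37.5%). These are counts of places within 1 pair of libraries, and no test over samples can be made of them. What GLK2 replicate 2 holds at these places beyond GLK2 replicate 1 was not tested.

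**Figure D4:**
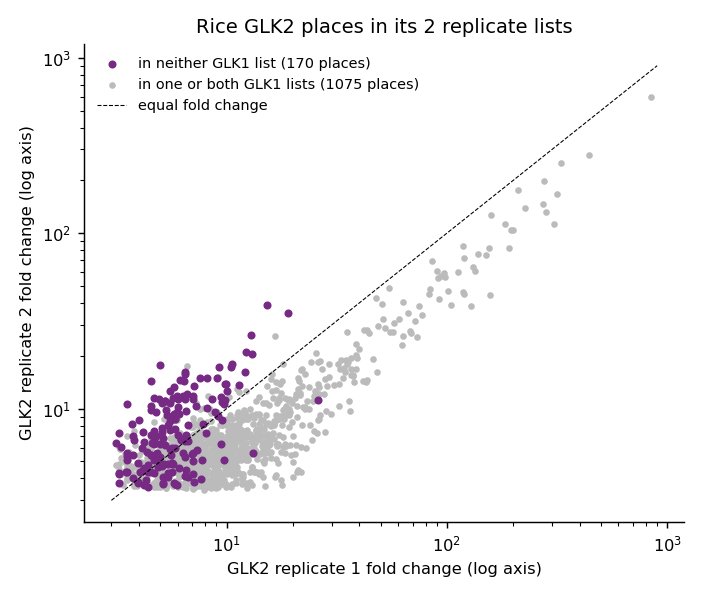
Fold change in GLK2 replicate 2 (y axis) against GLK2 replicate 1 (x axis), both on log axes, at the 170 GLK2 places in neither GLK1 list (purple) and the 1075 in 1 or both (grey), with the dashed line at equal fold change. The purple points lie mostly above the line (121 of 170) and 13.9% of the grey points do.

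The 170 places overlap no GLK1 window by definition, and no background distance was taken for comparison. The median distance to the nearest GLK1 summit was 5677 bp, with 12 within 300 bp, 27 within 1000 bp and 49 beyond 10000 bp. Their share of the GLK2 places of a chromosome was lowest on chromosome 3 (17 of 192, 8.85%) and chromosome 2 (13 of 146, 8.90%). It was highest on chromosome 11 (12 of 50, 24.0%) and chromosome 12 (11 of 46, 23.9%), where the counts are small.

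Both TFs had most places on the same chromosomes. Chromosome 1 held 1369 GLK1 places and 215 GLK2 places, and chromosome 3 held 1304 and 192. Between the first and the last summit of a chromosome, GLK1 had from 13.0 places per Mb on chromosome 11 to 35.8 on chromosome 3, and GLK2 from 1.67 on chromosome 12 to 5.27 on chromosome 3. The GLK1 to GLK2 ratio of places ran from 6.37 on chromosome 1 to 9.11 on chromosome 12.

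The shares per chromosome differed little between the TFs. Among reproducible summits, both GLK1 lists lay on 1 side of both GLK2 lists on 11 of the 12 chromosomes (91.7%), 7 times above and 4 times below. The largest difference was on chromosome 1, with 15.3% and 15.3% of the summits in GLK1, against 16.7% and 17.3% in GLK2. An exact permutation test over the 4 libraries cannot go below p = 0.333, which it gave on these 11 (two-sided, adjusted p = 0.364 over 12 chromosomes), so no chromosome passed. Reproducible summits of a pair are by construction the same places, which draws the replicates together. Over all deposited summits, an alternative chosen after the data were seen, the 12 chromosomes still separated the TFs. On chromosome 1 the shares were then 14.8% and 14.9% in GLK1, against 16.2% and 16.5% in GLK2, and on chromosome 12 they were 4.93% and 4.84% against 4.06% and 3.54%. The GLK1 share of places lay outside the 95% Wilson interval of the GLK2 share on chromosome 1 only (15.2% of GLK1 places, against 17.3% of GLK2 places with an interval of 15.3 to 19.5%).

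**Figure D5:**
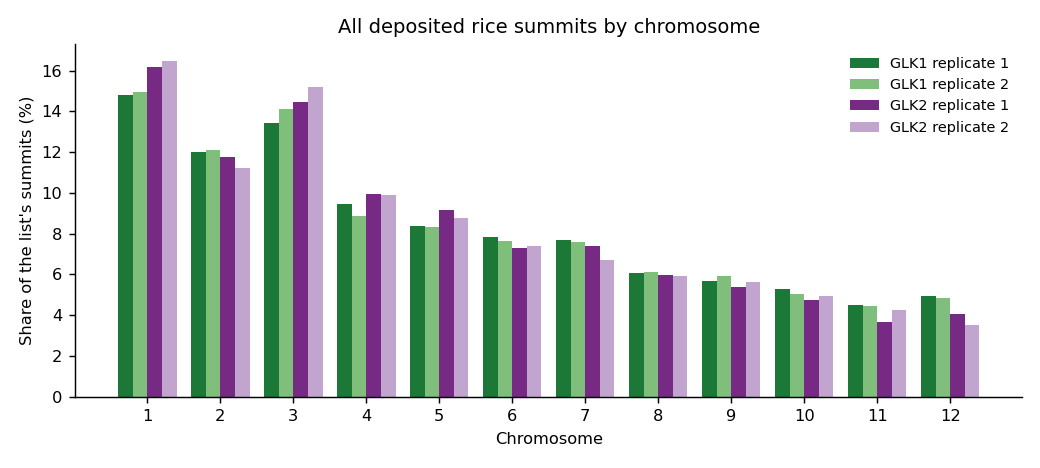
Share of all deposited summits of each rice list (y axis, percent) on each of the 12 chromosomes (x axis), with 1 bar per library. On chromosomes 1, 3, 4 and 5 both GLK1 bars are below both GLK2 bars, and on the other 8 they are above.

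The other species had GLK1 and GLK2 lists of more even length. The longest rice list was 12.7 times the shortest, against 1.45 to 2.65 times in the other 4 species. Rice had 7.25 GLK1 places per GLK2 place, against 0.635 to 0.824. With the rice lists cut to equal length there were 1050 GLK1 and 862 GLK2 places. Of the 500 strongest GLK1 places, 59.6% had a GLK2 place in rice, against 99.2% in Arabidopsis, 98.8% in tobacco, 99.8% in tomato and 58.2% in maize. The Wilson intervals of rice and maize (55.2 to 63.8% and 53.8 to 62.4%) overlap and are below those of the others. The maize lists came from leaf protoplasts. The species also differ in tag, in how the TF was expressed and in depth, and no test between them was made.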

How the data were processed

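Rice ChIP-seq lists were used as deposited: GLK1 and GLK2, 2 replicates each, from separate plants. The authors mapped the reads to MSU7.0 with Bowtie2 2.3.2, filtered them with SAMtools and called the peaks of each library with MACS2 2.2.1 against a control that the sources used here do not identify. Each deposited line gives a 150 bp window, the fold change over the control (a ratio, used as strength) and the −log10 q value, both set by the authors' caller. No read was counted here, and list length moves with depth and enrichment, which the lists do not hold. A library's value at a place is its strongest summit with a window overlapping the place.

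Places were named by rules: the 10 strongest of each TF, the 5 strongest of each TF absent from both lists of the other, up to 5 called places per side, and the places whose mean GLK1 fold change matched the chlorophyll pathway source table (relative tolerance 1e-05; 12 rice entries, 10 different values, 7 matched). The fixed plan spoke of a single deposited fold change; the mean of both GLK1 lists was matched instead. A PSAP region the study plots is not reported here. Members and lists were chosen with earlier results of these data known. limma 3.58.1 (R 4.3.3) fitted log2 fold changes, with eBayes trend, GLK1 minus GLK2, and was tested on simulated data. Alternatives were other distances (75 and 300 bp), a filter at 5 on fold change and −log10 q, 1 summit per region, lists of equal length, strength by −log10 q, each library left out and, for limma, other scalings, a pseudocount of 1, only places above the median strength and a replicate block. Scripts ran under Python 3.11.15 (pandas 2.3.3, numpy 2.4.6, scipy 1.17.1); figures were drawn with matplotlib 3.10.9. No rice genome or annotation was used, so sequences and other gene names are not given.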

Additional observations from a re-analysis of the deposited data

How the results depend on the processing

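Counts and shares of places moved with the distance, the filter and the list length. The 9024 GLK1 and 1245 GLK2 places became 2733 and 542 with a fold change and −log10 q of at least 5. With lists of equal length they became 1050 and 862. The share of GLK1 places with a GLK2 place was 8.52% and 12.1% with summits within 75 and 300 bp, 14.6% with the filter and 40.3% with lists of equal length. That of GLK2 places with a GLK1 place was 61.7%, 81.6%, 72.9% and 49.0% in the same order, and 65.2% with the highest summit per region. Recurrence of the 500 strongest GLK1 places was 48.6% within 75 bp and 48.4% with the filter. The median rho between the TFs was 0.63, and 0.72 within 75 bp, 0.76 with the filter and 0.71 at equal length. Leaving out 1 library at a time gave 9024 to 22234 GLK1 places, 1245 to 6089 GLK2 places, shares of 5.31 to 31.8% and 47.5 to 83.7%, recurrence of 56.0 to 71.2% and rho of 0.54 to 0.64.

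The 5 calls became 39 with median centring, 2 without normalisation, 36 among places above the median of the mean fold change, 28 within 75 bp, 13 within 300 bp, 14 with the filter, 8 with the highest summit per region and 20 by −log10 q, and leaving out 1 library gave 0 to 93, with the remaining library of that TF assumed to vary like the others. A replicate block gave 40 calls. The replicates share only a number: the differences between replicates of both TFs correlated at 0.08 across the 1037 places, so the block is no stronger evidence. Among the pathway places, none called, GUN4 turned from -0.09 to 0.0811 with median centring and 0.0634 without normalisation, and CHLH from -0.11 to 0.0506 and 0.0328. Without 1 library the difference ran from -0.32 to 0.17 at GUN4 (positive without GLK1 replicate 1 or GLK2 replicate 1), from -0.80 to 0.0463 at HEMA and from -0.00724 to 0.25 at CHLI (both turned without GLK2 replicate 2).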
